A study of Mus musculus with 4 samples.

Results

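Genes for potassium, sodium and calcium channels were examined in mouse lung, across 2 IKKa floxed and 2 wild type samples. Gene symbols beginning with Kcn, Scn followed by a number and a or b, Scnn1, or Cacna, Cacnb or Cacng matched 122 genes among the 18193 genes named on the array. Each gene was read from its probe set with the highest mean over the 4 arrays. The members described here are the 30 of 122 genes whose mean intensity was above 50 in at least one group. Both groups were of strain B6/J. All mice had been given Cre recombinase by an adenovirus put into the trachea, and their lungs were taken 4 months later. The IKKa floxed mice carried a floxed allele of IKKα, a kinase of the complex that activates NF-κB, and the controls were wild type mice given the same virus. No label names a promoter or cell type that would restrict the recombination, and the virus was the source of Cre in both groups. Chuk, the gene for IKKα, is not analysed here, and its loss was not checked. The labels give neither age nor sex, and they do not say whether each array is a separate animal. The p-values set a group difference against the spread between these arrays, moderated by the spread of all genes. Whether they speak for separate animals cannot be told.

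Ion channels are membrane pores that let chosen ions pass down their gradients. Potassium channels set the resting voltage of a cell, voltage-gated sodium and calcium channels carry excitation, and the epithelial sodium channel takes up sodium, and with it water, across the airway and alveolar surface. Accessory subunits do not form the pore but change how it opens or how much of it reaches the membrane. In the lung these genes are used by airway and alveolar epithelium, by vascular and airway muscle, by nerves and by immune cells.

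Arrays differed in ways that touch every result. Xist, an RNA of cells with an inactive X chromosome, stood at 4246 and 4629 in the floxed arrays, against 31.8 and 22.9 in the wild type arrays. The Y-linked gene Eif2s3y stood at 3.77 and 6.14 in the floxed arrays, against 519 and 530 in the wild type arrays. Genotype and sex pattern therefore cannot be told apart. As a measure of RNA integrity, probes at the 3′ end of Gapdh read 1.44 and 1.68 times those at its 5′ end in the floxed arrays, against 1.18 and 1.10 times in the wild type arrays. For actin these values were 2.67 and 2.77 in the floxed arrays, against 2.65 and 2.46 in the wild type arrays. The part of RNA quality in the results was not tested. Intensities are linear and scaled to the same trimmed mean of 150.001 on each array. They were compared as log2(intensity + 16) with limma, and a gene was called where its adjusted p was under 0.05. On that scale the fold change of a dim gene is understated.

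A single channel gene rose and none fell. Kcnn4, the pore of the intermediate-conductance calcium-activated potassium channel, was 2.16-fold higher in floxed lungs. The epithelial sodium channel genes gave log2 fold changes between -0.07 and 0.00, and 29 of the 30 genes did not pass the test. Over all genes tested, 1.77% were called in either direction, 1.01% were called higher and 0.762% lower. The 1 called channel gene makes 3.33% of the 30, but it is among them through its floxed mean alone. Over the 47 matched channel genes that were tested, at any group mean, the share was 2.13%. The median log2 fold change was -0.16 over the 30 genes and 0.00 over all 12735 genes tested, and 22 of the 30 lay below 0, against 6366 of all genes. The median was -0.06 without wild type replicate 1, and 17 lay below 0 without IKKa floxed replicate 1. The floxed and wild type arrays did not overlap for 15 of the 30 genes, while they did not overlap for 45.8% of all genes. Of those 15 genes, 10 were lower and 5 higher in floxed lungs, which makes 33.3% and 16.7% of the 30. Over all genes tested, 22.2% were lower and 23.6% higher without overlap. At an unadjusted p under 0.05 there were 9 of the 30, against 14.3% of all genes. Since genes on an array are not independent samples, these shares are descriptions.

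**Figure D1:**
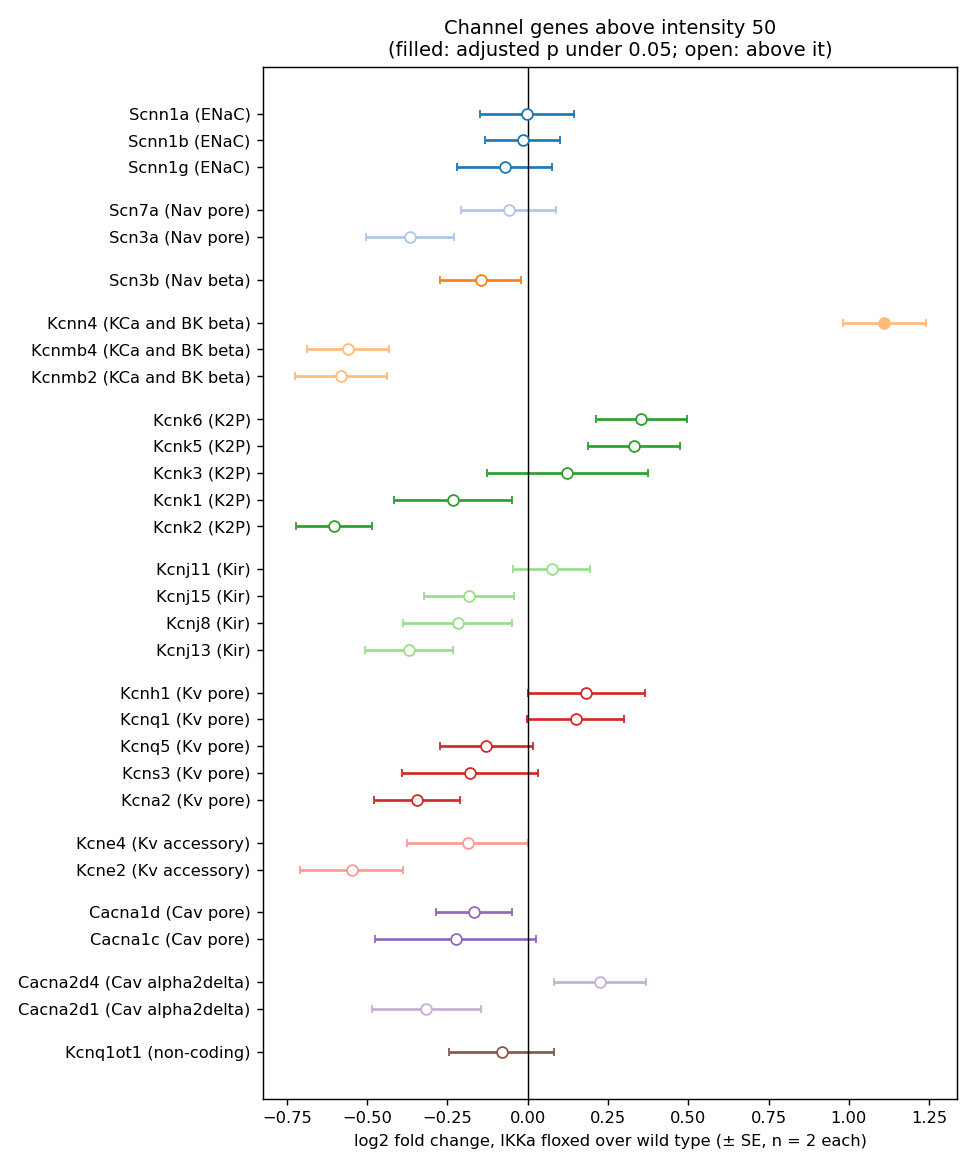
Log2 fold change (horizontal axis, IKKa floxed over wild type, on the log2(intensity + 16) scale) of the 30 channel genes, grouped by role down the page, with bars of 1 SE and n = 2 arrays in each group. Kcnn4 at 1.11 is the filled point, and the other genes lie between -0.60 and 0.35.

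Kcnn4 encodes a channel that opens when calcium binds calmodulin on its tail, and in T cells and macrophages it is known to hold the membrane voltage negative while calcium enters. Its intensity was 103 and 89.7 in the floxed arrays, against 38.2 and 33.9 in the wild type arrays. Both floxed arrays lay above both wild type arrays, and the gap was larger than the spread within either group. The means were 96.5 ± 9.64 in floxed lungs and 36.0 ± 3.05 in wild type lungs (SD, n = 2 each), with a log2 fold change of 1.11 ± 0.13 (SE) and an adjusted p of 0.0109. Kcnn4 is a member through its floxed mean alone, so a difference in that direction was part of how it came to be described. Its test was run among all genes, where it stood by its mean over all arrays. The call held whichever array was left out (adjusted p from 0.0154 to 0.0370). A second, dimmer probe set of Kcnn4 read 48.5 and 31.3 in the floxed arrays, against 24.8 and 27.9 in the wild type arrays, a log2 difference of 0.38. With the mean of both probe sets the log2 fold change was 0.75 and the adjusted p 0.0557, and with no filter on dim genes the adjusted p was 0.0589.

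Among immune cells, markers of T cells and of macrophages and monocytes were higher in floxed lungs. Others went the other way without passing. All 4 tested B cell markers (median log2 fold change -0.29) and all 3 tested neutrophil markers (median -0.31) lay below 0. The groups overlapped for each of those 3 neutrophil markers. The summed neutrophil list read 888 and 470 in the floxed arrays, against 704 and 949 in the wild type arrays. Of 9 T cell markers on the array, 7 were tested, 4 rose and none fell, with a median log2 fold change of 0.89. Their summed intensity was 829 and 635 in the floxed arrays, against 347 and 323 in the wild type arrays. Cd3d, a chain of the T cell receptor complex, read 277 and 175 in the floxed arrays, against 102 and 91.0 in the wild type arrays (log2 fold change 1.07, adjusted p = 0.0672). Cd3g, another chain of it, stood at 0.89 on the log2 scale (adjusted p = 0.0445). The other defining markers Cd3e and Cd4 were too dim to be tested. Of 10 macrophage and monocyte markers, 4 rose and none fell, with a median of 0.91. Their sum was 6414 and 5673 in the floxed arrays, against 4185 and 4128 in the wild type arrays. Csf1r, the receptor that macrophages need to survive, gave 0.21 (adjusted p = 0.485), and the complement gene C1qa gave 0.92 (adjusted p = 0.111). The part of these cells in the Kcnn4 result was not tested. In whole lung, more cells of a type and more RNA per cell cannot be told apart.

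**Figure D2:**
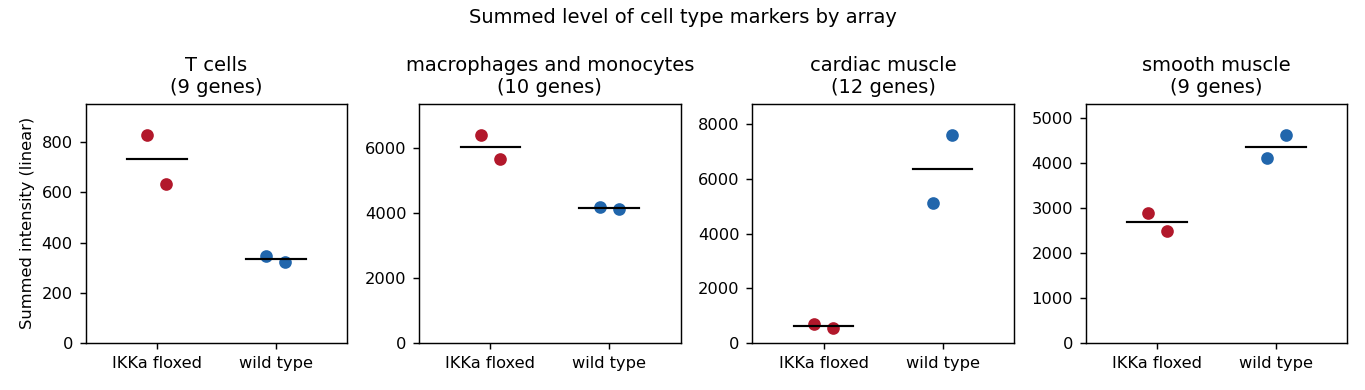
Summed linear intensity (vertical axis, from 0) of 4 lists of cell type markers on each array, with floxed arrays at left in red and wild type arrays at right in blue, and a bar at each mean. T cell and macrophage sums are higher in both floxed arrays, and cardiac and smooth muscle sums are lower in both.

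Other channel genes known from leukocytes were dimmer or did not pass. Kcnk6, a tandem-pore potassium channel known for potassium efflux in mouse macrophages, read 447 and 373 in the floxed arrays, against 299 and 335 in the wild type arrays. The groups did not overlap, with a log2 fold change of 0.35 ± 0.14 (SE), but the adjusted p was 0.326. Kcnab2, a beta subunit of voltage-gated potassium channels, stayed under intensity 50 at 38.9 and 37.1 in floxed against 17.9 and 26.5 in wild type arrays (0.51 ± 0.15 SE, adjusted p = 0.182). The other probe set of Kcnab2 gave 0.029. Kcnab2 is named for its value and is not one of the 30. Kcna3, the voltage-gated channel of T cells, was too dim to be tested.

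Promoter windows are shown for Kcnn4, the called gene, and for Kcnmb2 and Kcnmb4, accessory subunits of one channel, which lay lowest among the calcium-activated channel genes. Each window runs from 250 bases before to 50 bases after the start of the gene in RefSeq (GRCm38.p6), 5′ to 3′ on the gene's strand, and 22 of the 30 genes had such a window. Capitals mark any match, on either strand, to the letters GGGNNNNNCC for NF-κB, TGANTCA for AP-1, TTCNNNGAA for the interferon-activated GAS element, or GAAANNGAAA for the interferon-stimulated response element.
Kcnn4 (chr7:24370013-24370312, plus strand): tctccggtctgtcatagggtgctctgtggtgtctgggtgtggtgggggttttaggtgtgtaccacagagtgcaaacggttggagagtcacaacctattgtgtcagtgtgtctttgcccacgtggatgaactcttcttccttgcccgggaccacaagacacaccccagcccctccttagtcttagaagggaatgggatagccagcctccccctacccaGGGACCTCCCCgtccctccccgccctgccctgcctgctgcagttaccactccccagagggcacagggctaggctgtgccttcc
Kcnmb2 (chr3:31902453-31902752, plus strand): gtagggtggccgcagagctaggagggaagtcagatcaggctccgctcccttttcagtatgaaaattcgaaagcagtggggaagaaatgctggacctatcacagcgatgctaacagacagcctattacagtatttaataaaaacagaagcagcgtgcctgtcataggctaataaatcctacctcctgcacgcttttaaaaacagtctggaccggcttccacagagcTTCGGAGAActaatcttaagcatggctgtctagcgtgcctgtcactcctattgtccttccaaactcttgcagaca
Kcnmb4 (chr10:116473474-116473773, minus strand): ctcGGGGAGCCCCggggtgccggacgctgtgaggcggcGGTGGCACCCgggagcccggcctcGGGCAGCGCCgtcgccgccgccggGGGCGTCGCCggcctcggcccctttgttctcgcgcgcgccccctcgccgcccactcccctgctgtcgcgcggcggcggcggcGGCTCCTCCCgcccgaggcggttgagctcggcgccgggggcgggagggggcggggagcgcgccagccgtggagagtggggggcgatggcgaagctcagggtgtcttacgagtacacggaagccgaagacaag

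The Kcnn4 window held 2 overlapping matches to the NF-κB letters, the first starting 33 bases before the gene's start. The Kcnmb4 window held 5 matches to the same letters, and the Kcnmb2 window held 1 match to the GAS letters and none to the NF-κB letters. The NF-κB letters occur in 50.8% of the 32851 promoter windows of all genes, so a match is common. The 22 channel genes had 31 windows in all, of which 18, or 58.1%, held such a match. The other letters were rarer, at 7.81% of all windows for AP-1, 8.30% for GAS and 3.44% for the interferon-stimulated element. Of the 31 channel gene windows, 1, 2 and 0 held them. These matches describe letters and do not show that a factor binds.

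Accessory beta subunits of the large-conductance calcium-activated potassium channel were lower in floxed lungs without passing the test. Such subunits change how strongly calcium and voltage open the pore, which Kcnma1 encodes. Kcnmb2 read 109 and 111 in the floxed arrays, against 194 and 153 in the wild type arrays. The floxed arrays were both lower, with a log2 fold change of -0.58 ± 0.14 (SE) and an adjusted p of 0.129. Its other probe set gave -0.72. Kcnmb4 read 66.4 and 62.1 in the floxed arrays, against 110 and 95.2 in the wild type arrays (-0.56 ± 0.13 SE, adjusted p = 0.106). Both genes thus separated the groups, with 95% intervals from -0.92 to -0.24 and from -0.86 to -0.26. These intervals treat each gene alone and are not adjusted for the number of genes tested or for how the genes were picked. The pore gene Kcnma1 was under intensity 50 and could not be placed beside them, since it read 22.3 and 20.4 in the floxed arrays, against 38.7 and 2.90 in the wild type arrays. Kcnn2, a small-conductance channel, was also under 50, at 21.0 and 18.6 in floxed against 25.1 and 29.2 in wild type arrays (adjusted p = 0.401).

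Tandem-pore (K2P) channels carry the background potassium leak of resting cells. Kcnk2, a leak channel opened by membrane stretch and by lipids, read 234 and 240 in the floxed arrays, against 356 and 381 in the wild type arrays. The groups were far apart relative to their spread, with means of 237 ± 4.12 in floxed lungs and 368 ± 17.7 in wild type lungs (SD, n = 2 each). Its log2 fold change of -0.60 ± 0.12 (SE) was the lowest among the 30 genes, and its adjusted p was 0.0678. Kcnk2 passed with a pseudocount of 64 (adjusted p = 0.0191) and with dim genes up to the 50th percentile left out (0.0330). It also passed with a robust prior that follows intensity (0.0175). It did not pass with a pseudocount of 1 (0.125), with no filter on dim genes (0.175) or with replicate number as a block (0.114). Nor did it pass after quantile normalization (0.0744) or with the mean of all probe sets (0.0557). Its side of the threshold thus depends on the setting. With an array left out, its log2 fold change ran from -0.65 to -0.56. Kcnk5, a leak channel opened by alkaline pH, read 65.4 and 84.6 in the floxed arrays, against 53.8 and 58.1 in the wild type arrays (0.33 ± 0.14 SE, adjusted p = 0.368), and its other probe set gave -0.11. Kcnk1, a weakly rectifying leak channel, overlapped between groups at 232 and 233 in floxed against 333 and 228 in wild type arrays. Kcnk3, an acid-sensitive leak channel of pulmonary artery muscle, overlapped too, at 38.0 and 74.5 in floxed against 56.1 and 41.2 in wild type arrays. Among the 5 K2P genes, 3 lay above 0 and 2 below, and none passed.

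Inward rectifiers pass potassium best near the resting voltage. Kcnj13, found in transporting epithelia, read 263 and 220 in the floxed arrays, against 330 and 302 in the wild type arrays. Both floxed arrays were lower, with a log2 fold change of -0.37 ± 0.14 (SE) and an adjusted p of 0.290. Kcnj15 read 401 and 495 in the floxed arrays, against 505 and 511 in the wild type arrays (-0.18 ± 0.14 SE, adjusted p = 0.622), and its 3 probe sets ran from -0.23 to 0.00. The Kcnj15 difference rested on 1 array, since it was -0.04 without IKKa floxed replicate 1. Kcnj11 and Kcnj8 are the pores of ATP-sensitive potassium channels, which couple voltage to the energy state of the cell. Kcnj11 read 160 and 156 in the floxed arrays, against 155 and 144 in the wild type arrays (0.07 ± 0.12 SE, adjusted p = 0.834). Kcnj8, the form of vascular muscle and pericytes, overlapped between the groups at 82.9 and 56.7 in floxed against 85.9 and 79.4 in wild type arrays. Its regulatory partner Abcc9, named here for that role and outside the selection rule, read 148 and 98.3 in the floxed arrays, against 210 and 192 in the wild type arrays (-0.66 ± 0.19 SE, adjusted p = 0.171). The 7 pericyte markers had a median log2 fold change of 0.02, with none called. Of these, 4 lay above 0 with overlap between the groups. The other 3 lay below 0 without overlap, against 22.2% of all genes tested. Smooth muscle markers had a median of -0.63. The part of either cell type in the Kcnj8 and Abcc9 values was not tested.

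**Figure D3:**
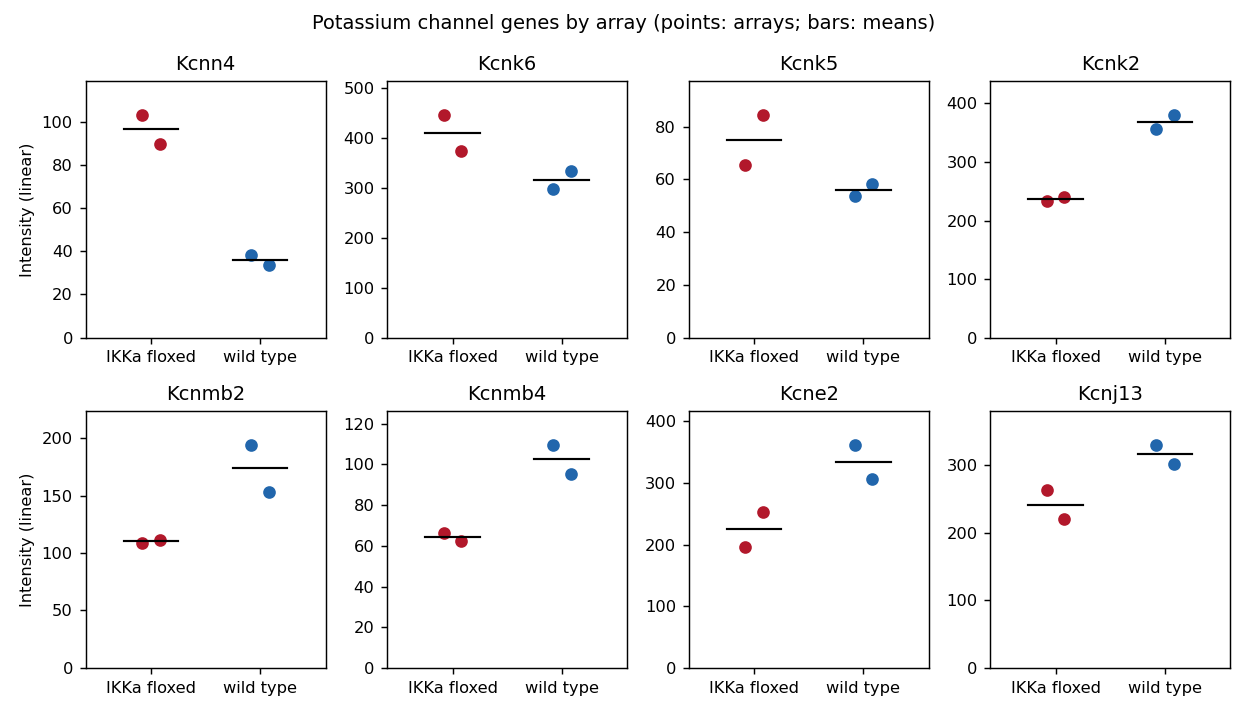
Linear intensity (vertical axis, from 0) of 8 potassium channel genes on each array, with floxed arrays at left in red and wild type arrays at right in blue, and a bar at each mean. The 8 were picked from the potassium channel genes whose groups do not overlap, so the lack of overlap is no result. Kcna2, Kcnj15 and Kcnj11 do not overlap either and are not drawn. Kcnn4 alone passed the test.

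Voltage-gated potassium channels shorten or limit excitation, and some also serve secretion. Kcnq1, which recycles potassium in secreting epithelia, read 143 and 149 in the floxed arrays, against 149 and 114 in the wild type arrays (log2 fold change 0.15 ± 0.15 SE, adjusted p = 0.718). Kcne2, an accessory subunit that keeps Kcnq1 channels open, read 196 and 252 in the floxed arrays, against 362 and 307 in the wild type arrays. Kcne2 was lower in both floxed arrays (-0.55 ± 0.16 SE, adjusted p = 0.186), whereas the pore gene Kcnq1 overlapped between the groups. Kcne4, an accessory subunit that inhibits the same pore, read 95.8 and 78.1 in the floxed arrays, against 122 and 82.7 in the wild type arrays (-0.19 ± 0.19 SE, adjusted p = 0.719). Kcna2, a channel best known from axons, read 42.2 and 53.1 in the floxed arrays, against 65.0 and 63.98 in the wild type arrays. The groups of Kcna2 did not overlap (-0.34 ± 0.13 SE, adjusted p = 0.315), and its 4 probe sets ran from -0.47 to 0.17. Kcnq5, Kcns3 and Kcnh1 overlapped between groups, with log2 fold changes of -0.13, -0.18 and 0.18. Kcnq1ot1, the long non-coding RNA transcribed antisense to Kcnq1 that takes part in imprinting, was matched by its symbol and is no channel. It read 112 and 153 in the floxed arrays, against 132 and 148 in the wild type arrays, and its 6 probe sets ran from -0.42 to 0.28.

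The epithelial sodium channel is built from the alpha, beta and gamma subunits that Scnn1a, Scnn1b and Scnn1g encode, and it drives the clearance of fluid from the alveoli. Scnn1a read 270 and 338 in the floxed arrays, against 317 and 289 in the wild type arrays. Scnn1b read 205 and 213 in the floxed arrays, against 209 and 213 in the wild type arrays. Scnn1g read 1047 and 1043 in the floxed arrays, against 979 and 1235 in the wild type arrays. The groups overlapped for all 3 subunits. Their log2 fold changes were 0.00 ± 0.15, -0.02 ± 0.12 and -0.07 ± 0.15 (SE), with adjusted p of 0.996, 0.971 and 0.876. The 95% intervals ran from 0.78-fold to 1.27-fold for Scnn1a, from 0.82-fold to 1.199-fold for Scnn1b and from 0.75-fold to 1.21-fold for Scnn1g. Scnn1g and Scnn1b are neighbours on chromosome 7, which holds 7 of the 30 genes, Kcnn4 among them.

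Genes that regulate or accompany the epithelial sodium channel did not pass either. Of 23 such genes on the array, 22 were tested, and none rose or fell, with a median log2 fold change of 0.09. At an unadjusted p under 0.05 there were 4, or 18.2% of the 22, against 14.3% of all genes tested. The furthest from 0 were Hsd11b2, the enzyme that inactivates glucocorticoids in sodium-transporting cells (0.60, adjusted p = 0.240), and Tsc22d3, a glucocorticoid-induced gene that stabilises the channel (0.33, adjusted p = 0.341). Hsd11b2 was dim, at 28.9 and 50.6 in the floxed arrays against 18.3 and 22.0 in the wild type arrays.

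Voltage-gated sodium channels start action potentials in nerve and muscle. Scn7a, an atypical member known in the brain as a sensor of sodium concentration, read 2058 and 2610 in the floxed arrays, against 2434 and 2396 in the wild type arrays. On this probe set the floxed arrays lay on either side of the wild type arrays (-0.06 ± 0.15 SE, adjusted p = 0.902). Another bright probe set of Scn7a did not overlap, at 1723 and 2032 in floxed against 2289 and 2112 in wild type arrays (-0.23). The 3 probe sets of Scn7a ran from -0.35 to -0.06. Scn3a, a pore of developing neurons, read 156 and 135 in the floxed arrays, against 178 and 207 in the wild type arrays. Its groups did not overlap (-0.37 ± 0.14 SE, adjusted p = 0.296), and its second probe set was near background and gave 0.00. Scn3b, a beta subunit that sets how many channels reach the membrane, read 794 and 771 in the floxed arrays, against 927 and 812 in the wild type arrays (-0.15 ± 0.13 SE, adjusted p = 0.663). Of 7 neuron markers on the array, 4 were under intensity 20 in both groups, only 2 were bright enough to be tested, and neither of those passed. Stmn2, 1 of them, read 779 and 733 in the floxed arrays, against 755 and 653 in the wild type arrays.

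**Figure D4:**
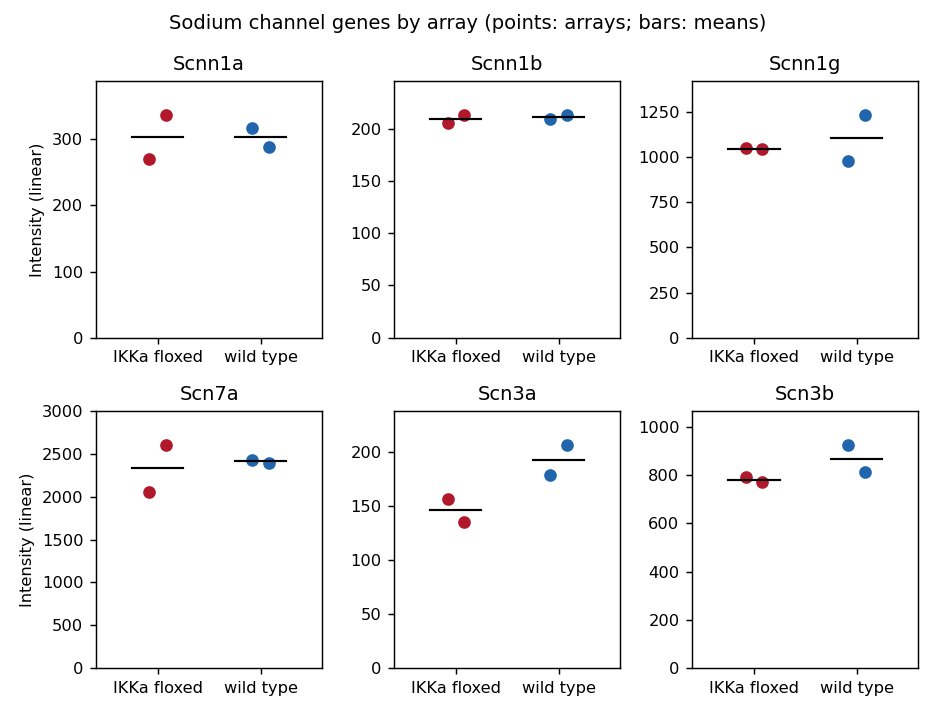
Linear intensity (vertical axis, from 0) of the 3 epithelial sodium channel genes and 3 voltage-gated sodium channel genes on each array, with floxed arrays at left in red and wild type arrays at right in blue, and a bar at each mean. On the probe sets drawn, the groups overlap for Scnn1a, Scnn1b, Scnn1g and Scn7a and do not for Scn3a and Scn3b. None passed the test.

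Voltage-gated calcium channels admit calcium for contraction, secretion and transcription. Cacna1c, the pore of cardiac and smooth muscle, read 34.2 and 56.5 in the floxed arrays, against 41.0 and 71.1 in the wild type arrays. The groups overlapped, and the interval from -0.82 to 0.37 on the log2 scale was wide. Cacna1d, a related pore of pacemaker and endocrine cells, read 115 and 112 in the floxed arrays, against 124 and 134 in the wild type arrays (-0.17 ± 0.12 SE, adjusted p = 0.586), with a second probe set at 0.18. Cacna2d1, an alpha2delta subunit that carries pores to the membrane, read 163 and 211 in the floxed arrays, against 263 and 211 in the wild type arrays (-0.32 ± 0.17 SE, adjusted p = 0.472). Cacna2d4, a related subunit, read 75.5 and 75.1 in the floxed arrays, against 54.2 and 71.0 in the wild type arrays (0.22 ± 0.14 SE, adjusted p = 0.548). No beta or gamma subunit reached intensity 50.

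Some genes of cardiac excitation outside the channel families fell. Of 24 such genes on the array, 20 were tested, 4 fell and none rose, with a median log2 fold change of -0.25. Sln, a small inhibitor of the calcium pump in atrial muscle, read 11.2 and 13.6 in the floxed arrays, against 463 and 696 in the wild type arrays (-4.36 ± 0.20 SE, adjusted p = 0.000347). Pln, another inhibitor of that pump, Trdn, a membrane protein of the calcium store, and Ryr2, the release channel of that store, had log2 fold changes of -2.60, -1.85 and -1.49. Of 12 cardiac muscle markers, which share Sln, Pln and Ryr2 with that list, 10 fell, with a median of -2.80 and a sum of 684 and 539 in the floxed arrays, against 5102 and 7610 in the wild type arrays. Myl7, an atrial myosin light chain, read 25.6 and 25.01 in the floxed arrays, against 1028 and 1474 in the wild type arrays. Smooth muscle markers were lower too, with 2 of 9 called and a median of -0.63. Several channel genes that heart muscle uses had lower means in floxed lungs, without passing the test. Besides Cacna1c, Cacna1d, Cacna2d1 and Kcne2, given above, these include the dim genes Kcnd3 and Kcnj12. Kcnd3, a pore of the transient outward current, read 25.6 and 35.4 in the floxed arrays, against 51.6 and 43.4 in the wild type arrays (-0.45 ± 0.15 SE, adjusted p = 0.242), and its 4 probe sets ran from -0.45 to 0.13. Kcnj12, an inward rectifier, read 18.2 and 13.8 in the floxed arrays, against 24.3 and 28.2 in the wild type arrays (-0.40 ± 0.13 SE, adjusted p = 0.240). Neither gene overlapped between the groups. Other channel genes that heart muscle uses went the other way without passing. Kcnq1, Kcnj11 and Kcnk3, also given above, had log2 fold changes of 0.15, 0.07 and 0.12. Kcnj3, Kcnj5 and Kcna5, channels of atrial muscle, were too dim to be tested. Kcnj3 read 0.363 and 1.12 in the floxed arrays, against 27.5 and 28.2 in the wild type arrays, and its 4 probe sets ran from -1.39 to 0.28. Kcna5 read 4.11 and 3.75 in the floxed arrays, against 7.43 and 10.53 in the wild type arrays. The groups did not overlap for Kcnj3 or Kcna5, while Kcnj5 overlapped at 14.8 and 9.75 in floxed against 25.2 and 11.3 in wild type arrays. The part of muscle in the lower values of these channel genes, and of Kcnk2, Kcnmb2 and Kcnmb4, was not tested.

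Among 20 tested genes of calcium entry and related ion transport, none passed (median 0.09). Trpm7, a channel fused to a kinase, gave -0.51 (adjusted p = 0.260), and Trpv2, a channel of macrophages, gave 0.46 (adjusted p = 0.244). Of the other marker lists, airway secretory cells had 5 of 8 tested genes called lower, adipocytes 3 of 4 and fibroblasts 1 of 6. Called or not, 6, 4 and 4 of these genes lay below 0. No tested marker of skeletal muscle, pericytes, endothelium, alveolar cells of either type, ciliated cells, neurons, Schwann cells, B cells or neutrophils passed, and no neuroendocrine marker was bright enough to be tested. All 7 ciliated cell markers nevertheless lay below 0 without overlap between the groups, against 22.2% of all genes tested. Their median was -0.35, and 4 of the 7 had an unadjusted p under 0.05, against 14.3% of all genes. Their sum was 5663 and 4847 in the floxed arrays, against 6431 and 6041 in the wild type arrays, and the part of ciliated cells in the lower channel genes was not tested. All 4 tested B cell markers lay below 0 too, with a median of -0.29. The tissue label was checked by alveolar markers, whose summed intensity on the arrays ran from 28042 to 31381 for type 1 cells and from 28339 to 34762 for type 2 cells. Sftpc, a surfactant protein of type 2 alveolar cells, read 13618 and 10831 in the floxed arrays, against 9204 and 8743 in the wild type arrays.

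The remaining 92 of the 122 genes had means of 50 or less in both groups. Of these, 17 were bright enough to be tested and 75 were not. None of the 17 passed, with 5 above 0 and 12 below, and the smallest adjusted p among them was 0.182. Just above the limit stood Kcnk3 and Cacna1c, with a higher group mean of 56.3 and 56.0. Just below it stood Kcnh3, with means of 45.7 in floxed and 49.8 in wild type lungs, and Kcnd3, with means of 30.5 in floxed and 47.5 in wild type lungs. Of the 30 members, 26 were above 50 in both groups. Kcnn4 and Kcnk3 passed the limit through the floxed mean alone, and Cacna1c and Kcna2 through the wild type mean alone. Among 19 members with several probe sets, 8 had probe sets on both sides of 0. These were Cacna1d, Cacna2d1, Kcna2, Kcnh1, Kcnk5, Kcnq1ot1, Kcns3 and Scn3a.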

How the data were processed

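RNA from 4 lung samples was measured on single-colour Affymetrix arrays, 2 IKKa floxed and 2 wild type, grouped by sample title. The deposited values are linear intensities per probe set, made with Affymetrix Expression Console per the submitters' processing notes. Its version and its algorithm are not given here by any source, and neither scanner files nor detection calls were used, so background correction could not be varied. The number of arrays limits the precision.

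Of 45101 probe sets, the platform annotation gives a single gene symbol for 34945 and several for 932, and does not list 9160 others or the 64 controls. Entrez numbers of 34754 matched RefSeq (GRCm38.p6), which changed 0 symbols. Each of 18193 genes kept its probe set with the highest mean. Array medians differed by 0.0649 on the log2 scale, which called for no further normalization. A filter at the 30th percentile of mean intensity (21.0) left 12735 genes. IKKa floxed was compared with wild type on log2(intensity + 16) in R 4.3.3 by limma 3.58.1 (eBayes after lmFit, two-sided, no covariates, 2 residual and 4.67 prior degrees of freedom), with Benjamini-Hochberg adjustment over all genes tested. The fit was tested on simulated data. With 2 arrays a group, the smallest p of an exact permutation test is 0.333, and none was run.

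Members, lists and tests were chosen with earlier results of these data known. Named genes were those past the threshold, the 10 per direction with the largest change whose groups did not overlap, the brightest 2 per role, the epithelial sodium channel subunits and the 2 nearest on each side of intensity 50. In partner lists they were called genes or the 2 furthest from 0, and in marker lists up to 2 bright genes. Kcnab2, Kcna3, Kcnma1, Kcnn2, Kcnj3, Kcnj5, Kcna5, Kcnj12, Kcnj8, Kcnk1, Kcns3, Kcnh1, Abcc9, Cd3e, Cd4, Xist and Eif2s3y stand outside this rule. Replicate numbers occur in both groups, but deviations of same-numbered arrays did not correlate (r = 0.00209 across genes), so samples were not paired.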

Additional observations from a re-analysis of the deposited data

How the results depend on the processing

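The number of channel genes past the threshold was 1, higher in floxed lungs, and it stayed 1 whichever array was left out (lowest 1, highest 1; Kcnn4 each time), with a pseudocount of 1, after quantile normalization and with the replicate block. It was 2 with a pseudocount of 64 and 2 with a robust prior that follows intensity, where Kcnk2 joined as 1 lower gene. It was 0 with no filter on dim genes and 0 with the mean of all probe sets, so that 0 were higher, and Kcnn4 stood at 1.11 and 0.75 there. With dim genes up to the 50th percentile left out, Kcnn4 was not among the genes tested, 0 were higher and 1, Kcnk2, was lower. The cause of the other moves was not tested. A filter on the mean of log2 values, chosen after seeing the data, gave 1. All genes called numbered 225, against 69 with no filter, 110 with a pseudocount of 1, 362 with a pseudocount of 64, 388 with that prior, and 145 without wild type replicate 2. The median of the 30 genes was -0.16, and it was -0.06 without wild type replicate 1. The block left Kcnn4 at an adjusted p of 0.0186 and changed no call among the 30. Genes above intensity 50 numbered 30, against 20 above 100 in either group, 44 above 25, 24 above 50 on all 4 arrays and 30 after quantile normalization.

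Among the genes named by the rule, signs turned only for uncalled ones. Cacna1d gave 0.0058 with the mean of its probe sets, and Scnn1a and Scnn1b gave 0.018 and 0.0072 after quantile normalization. With an array left out, the ranges were -0.24 to 0.093 for Scnn1g, -0.15 to 0.15 for Scnn1a, -0.28 to 0.12 for Kcnq1ot1, -0.53 to 0.082 for Cacna1c, -0.43 to 0.055 for Kcne4, -0.026 to 0.33 for Kcnq1, -0.23 to 0.11 for Scn7a, -0.040 to 0.0082 for Scnn1b and -0.25 to 0.50 for Kcnk3. Among uncalled genes that kept their sign, the ranges were -0.33 to -0.036 for Kcnj15, -0.25 to -0.010 for Kcnq5, -0.24 to -0.053 for Scn3b, -0.49 to -0.15 for Cacna2d1, -0.72 to -0.38 for Kcne2, -0.47 to -0.22 for Kcna2, 0.069 to 0.38 for Cacna2d4, 0.18 to 0.48 for Kcnk5, 0.23 to 0.48 for Kcnk6 and 0.026 to 0.12 for Kcnj11. They were -0.65 to -0.56 for Kcnk2, -0.74 to -0.43 for Kcnmb2 and -0.65 to -0.47 for Kcnmb4. For Kcnj13 and Scn3a they were -0.49 to -0.25 and -0.46 to -0.27.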
